A study of Mus musculus with 40 samples.

Results

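Myc, its paralog Mycn and 8 genes whose proteins make ribosomal RNA were followed through the sorted cells of a mouse colon tumor model. The genes were chosen by symbol, and each of the 10 was found as 1 gene among the 45706 of the deposited tables. Myc is a transcription factor that pairs with Max, and genes for ribosome production are among its best known targets. In the nucleolus, RNA polymerase I copies the ribosomal RNA genes, small nucleolar ribonucleoproteins (snoRNPs) guide the modification of the transcript, and further factors cut and fold it into the 2 ribosomal subunits. In colon epithelium, Myc is a classical target of Wnt signaling, which the Apc protein restrains, and ribosome production falls as neutrophils mature. The genes coded for the transcription factors Myc and Mycn, the large catalytic subunits of RNA polymerase I (Polr1a, Polr1b), the box C/D snoRNP proteins fibrillarin, Nop56 and Nop58 (gene Fbl for fibrillarin), the snoRNP chaperone Nolc1, and the abundant nucleolar proteins nucleolin (Ncl) and nucleophosmin (Npm1).

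RNA was sequenced from 40 libraries in 10 groups of 4. Epithelial cells (EpCAM+ CD45-) and stromal cells (EpCAM- CD45-) were sorted from healthy colon and from colon tumors, and neutrophils (Ly6G+) and monocytes (Ly6G- Ly6C high) were sorted from the same tumors and from the blood of both kinds of mice. The authors isolated tissue cells after enzyme digestion of minced tissue, and mouse blood cells after lysis of red blood cells. In comparisons of tumor with blood leukocytes, the site cannot be told apart from this preparation. Tumor-bearing mice were labelled Cdx2CreERT2 - Apc fl/fl, with a strain of C57Bl6/Sv and a number that differs in every library (C57Bl6/Sv129 in one of them), and a single intraperitoneal dose of tamoxifen, 25 mg/kg, had activated the recombinase when they were 8 to 10 weeks old. Healthy mice were labelled C57Bl6 with no transgene and no agent. In every comparison of tumor-bearing with healthy mice, the tumor therefore cannot be told apart from strain background, transgene and tamoxifen. Cdx2 drives the recombinase in intestinal epithelium, so that leukocytes and stromal cells of these mice carry the floxed allele but are not the cells in which the promoter is active. The titles name different animals within a group, but the same animals recur between groups. Healthy blood neutrophils came from 4 mice that were also pooled in monocyte libraries 3 and 4, healthy epithelial and stromal library 4 share an animal, and several tumor-bearing mice gave more than 1 cell type. The comparisons below treat these libraries as independent. By the titles, 4 of the blood libraries (1 of neutrophils from tumor-bearing mice and 3 of monocytes from healthy mice) were pooled from a pair of animals.

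Several of these genes have near-identical copies elsewhere in the genome, and this bears on every value below. Coding sequences were searched against the mouse transcripts for copies of at least 85% identity over at least 400 bases. Ncl had 2 processed pseudogenes, Gm12020 and Gm17837, which together held 23.1% to 41.9% (median 38.02%) of the counts on Ncl and its copies. Npm1 had 12 pseudogenes, 7 of them in the tables, with 23.3% to 72.0% (median 33.5%) of the counts, and Nop56 had 5, 3 of them in the tables, with 8.47% to 45.3% (median 16.2%). Nolc1 had 1, Gm5124, with up to 19.7%. Fbl had 4. Its pseudogene Gm5812 was at 0 counts in all libraries, AC126448.1 was not analysed here, Gm6211 (91.8% identity over 875 bases) held 2130 counts over all libraries against 2625 on Fbl itself, and a transcript of Tulp4 shares 674 bases with Fbl at 99.6% identity. For Myc (chr15:61985391-61990374, plus strand), Mycn (chr12:12936093-12941914, minus), Nop58 (chr1:59684971-59719044, plus), Polr1a (chr6:71909053-71984935, plus) and Polr1b (chr2:129100995-129126594, plus) no such copy was found. Nop56 overlaps Idh3b and Polr1a overlaps Gm26628 on the opposite strand, with 174% and 3.23% of their counts, and whether counting used strand is not given in the sources used here. How the authors treated reads that fit several places is not given in the sources used here, so the levels of Ncl, Npm1, Fbl, Nop56 and Nolc1 are uncertain. The stretches below (GRCm38) are, for each pair, the gap-free 60 bases within a single exon that differ least. They show where a short read can tell the genes from their copies least. Over the whole alignments, identity was 89.0% over 1779 bases for Ncl and Gm12020. It was 92.6% over 876 bases for Npm1 and Gm15484, and 95.5% over 757 bases for Nop56 and Gm9432. Capitals mark bases that differ within a pair. The Ncl stretch lies at chr1:86358122-86358181 (minus strand) and its copy at chr11:18327555-18327614 (minus strand). The Npm1 stretch at chr11:33161568-33161627 (minus strand) is identical in Gm15484 at chr5:110118733-110118792 (minus strand), and the Nop56 stretch at chr2:130277476-130277535 (plus strand) is identical in Gm9432 at chrX:12620170-12620229 (minus strand).
Ncl: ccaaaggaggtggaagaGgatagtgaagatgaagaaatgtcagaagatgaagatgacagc
Gm12020: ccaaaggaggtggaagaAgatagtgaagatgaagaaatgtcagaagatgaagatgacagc
Npm1 and Gm15484: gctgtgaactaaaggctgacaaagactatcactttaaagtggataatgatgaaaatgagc
Nop56 and Gm9432: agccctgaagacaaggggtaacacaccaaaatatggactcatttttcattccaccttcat

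Myc and Max bind the E-box CACGTG and its variant CACGCG, so the promoters (250 bases before to 50 after the start, RefSeq, GRCm38.p6) were read for these letters on both strands. Promoters were available for 7 of the 10 genes and are not analysed here for Myc, Npm1 and Fbl. CACGTG was in none of the 7, against 7.15% of all 32851 promoter windows. CACGCG was in the window of Nolc1 alone, 25 bases before its start, against 9.27% of all windows. The 60 bases around it, chr19:46075787-46075846 (plus strand), are printed with the match in capitals, read there on the other strand. Among other genes of the pathway with a window, CACGTG was in 11 of 34 of the small-subunit processome list, 5 of 36 of large-subunit assembly, 3 of 17 of RNA polymerase I, 1 of 16 of the snoRNP list, 5 of 16 of the Myc network and 4 of 12 textbook targets. CACGCG was in 9 of 34, 15 of 36, 7 of 17, 5 of 16, 3 of 16 and 8 of 12 in the same order. These counts are of genes, and the background shares are of windows.
Nolc1: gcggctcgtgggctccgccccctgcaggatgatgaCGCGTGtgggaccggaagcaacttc

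Counts on genes totaled 1.07e+07 to 3.80e+07 per library, and mitochondrial genes took 5.34% to 83.9% of them. RPKM, the deposited level scaled to gene length and sequencing depth, is used below to rank groups and to compare genes. Counts scaled to a common depth by TMM over the 40 libraries (TMM CPM) are used for 1 gene across libraries, since a large mitochondrial share lowers RPKM of all other genes. Some libraries stood apart from their group. Healthy epithelial library 4 had the 83.9% mitochondrial share. Healthy stromal library 4 had a summed level of 10 stromal markers of 2329 RPKM, against 634 to 840 in the other 3. Tumor stromal libraries 1 and 2 had epithelial marker sums of 233 and 134 RPKM with stromal sums of 14.9 and 36.9, and libraries 3 and 4 had neutrophil marker sums of 1600 and 549 RPKM. Tumor neutrophil library 1 had an epithelial marker sum of 173 RPKM, and its 10 epithelial markers stood at a median of 79.5% of their mean in tumor epithelial cells, against 4.90% to 17.5% in the other 3. The remaining groups carried the markers of their sort. No label says whether libraries of a group were processed apart, so p-values measure the spread between these libraries. Apc in epithelium was at 0.343 to 3.34 RPKM in healthy and 5.97 to 6.51 RPKM in tumor libraries, but reads from outside the floxed part say nothing of the deletion.

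By mean RPKM, Myc was highest in healthy stromal cells (24.3 ± 33.0, SD, n = 4 here and below), tumor epithelial cells (16.9 ± 3.10) and tumor stromal cells (13.7 ± 2.11). Healthy epithelial cells (6.42 ± 3.63), tumor monocytes (5.43 ± 2.59) and tumor neutrophils (4.45 ± 3.05) followed. Blood monocytes were at 0.973 ± 0.409 in tumor-bearing and 0.530 ± 0.390 in healthy mice, and blood neutrophils were lowest at 0.0401 ± 0.0237 and 0.0388 ± 0.0293. Every library of tumor neutrophils and tumor monocytes was above every blood monocyte library, and these in turn above every blood neutrophil library. Above them the ranges ran into each other, since healthy stromal libraries started at 6.45 RPKM and healthy epithelial ones reached 10.08. Tumor stromal and healthy epithelial cells, neighbours in this order, did not overlap on RPKM but did on TMM CPM (86.9 to 145 against 73.9 to 96.5). Myc counts in blood neutrophils were 2.62 to 20.0 per library, against at least 462 in any epithelial library. Mycn was low throughout, from 0.692 ± 0.368 RPKM in healthy stromal cells to 0.0108 ± 0.00539 in blood neutrophils of tumor-bearing mice, and in blood it rested on 1.30 to 6.87 counts per library.

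**Figure D1:**
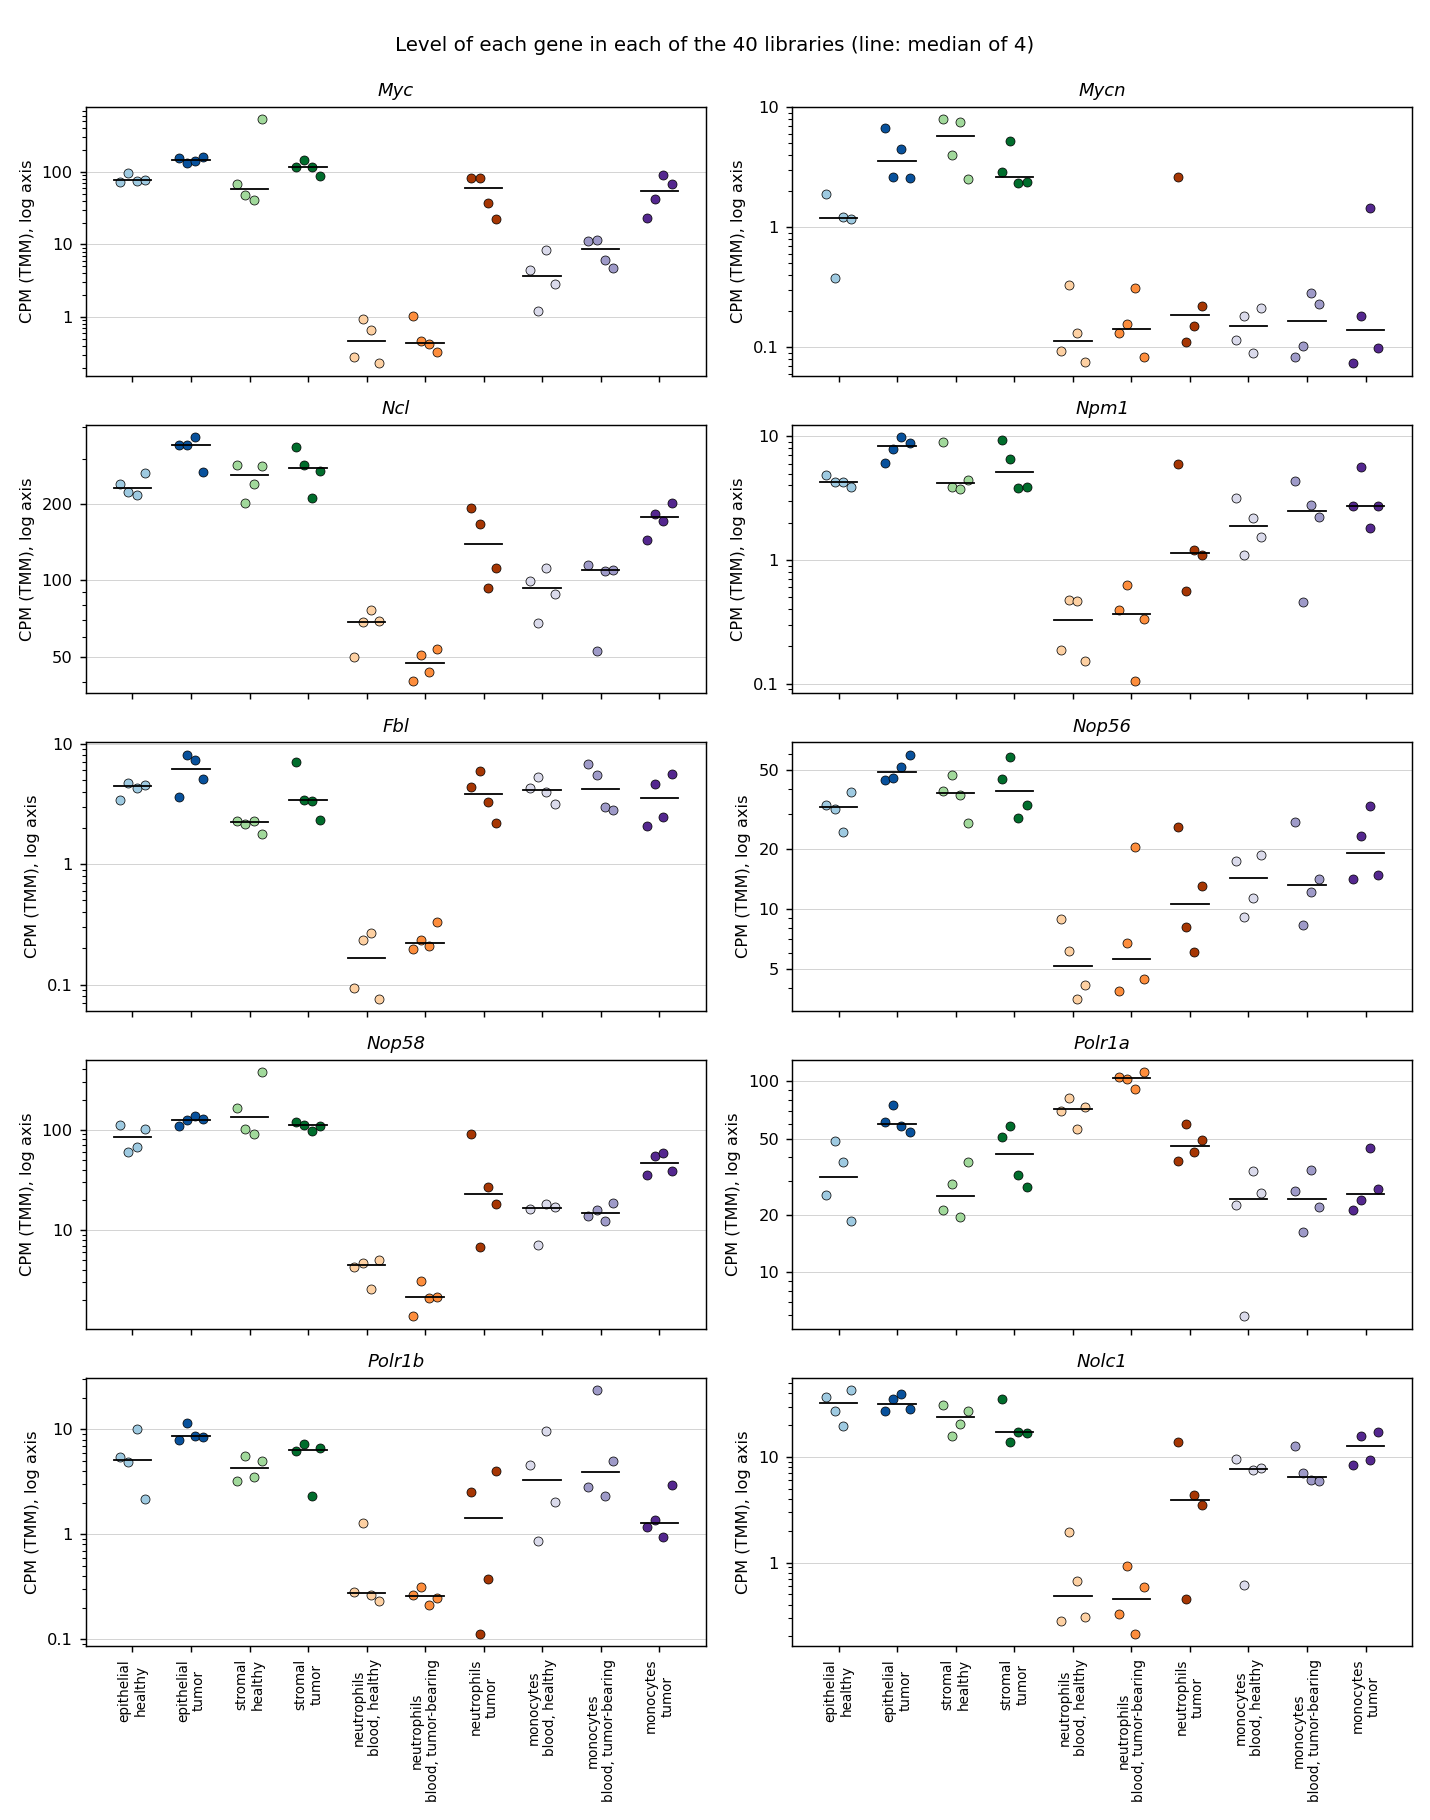
TMM CPM (log axis) of the 10 genes in each of the 40 libraries, 1 panel per gene, with a line at the median of each group of 4. Myc runs from 0.229 to 1.05 TMM CPM in blood neutrophils to 134 to 160 in tumor epithelial cells, while Polr1a is highest in blood neutrophils of tumor-bearing mice, at 91.0 to 112.

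Ncl ran from 10.5 ± 2.73 RPKM in tumor epithelial cells to 0.917 ± 0.132 in blood neutrophils of tumor-bearing mice, and had the highest mean of the 8 ribosome genes except in both groups of blood neutrophils, where Polr1a was higher. Ncl, Npm1 and Nop56 shared their first 4 places (tumor epithelial, healthy stromal, tumor stromal and healthy epithelial cells), and in all 3 genes tumor stromal and healthy epithelial cells did not overlap on RPKM. On TMM CPM they did, with Ncl at 211 to 333 against 217 to 264, Npm1 at 3.84 to 9.26 against 3.87 to 4.86 and Nop56 at 28.7 to 58.1 against 24.4 to 38.4. Nop58 ran from 6.82 ± 4.604 RPKM in healthy stromal cells to 0.0399 ± 0.0147 in blood neutrophils of tumor-bearing mice. Fbl was lowest in blood neutrophils (0.0402 ± 0.00542 in tumor-bearing and 0.0291 ± 0.0158 RPKM in healthy mice), which did not overlap the next group, and the other 8 groups, between 0.719 and 1.67 RPKM, overlapped from neighbour to neighbour. Polr1a had another order than the rest. It was highest in blood neutrophils of tumor-bearing mice (3.35 ± 0.355 RPKM) and tumor epithelial cells (3.29 ± 0.490) and lowest in blood monocytes of healthy mice (1.28 ± 0.692), with every neighbouring pair of groups overlapping. Polr1b stayed at or under 0.498 RPKM on average and Nolc1 at or under 2.89.

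As a description over the 10 group means of log2(RPKM + 1), which share libraries and depth, Myc correlated with Ncl (r = 0.948), Nop58 (0.944), Nolc1 (0.916), Npm1 (0.912) and Nop56 (0.901), less with Mycn (0.804), Fbl (0.597) and Polr1b (0.584), and hardly with Polr1a (0.054). Among 1909 genes with a mean of at least 5 RPKM, the profiles most like Myc included those of Gm5844, Gm12346, Hsp90aa1 and Gm5511 (r = 0.976 to 0.978). Hsp90aa1 codes for a heat shock protein. The profiles most like Ncl were Gm14107, Gm12020, Gm6368, Gm17837 and Hnrnpab (r = 0.969 to 0.987), of which Gm12020 and Gm17837 are its own pseudogenes.

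The comparison of tumor with healthy epithelium asks how these genes stand in the compartment in which the recombinase was induced. Myc, Nop56 and Polr1a were higher in tumor epithelial cells, 1.84-, 1.59- and 1.94-fold. All 10 genes had a log2 difference above 0, with a median of 0.69 against -0.01 over all genes tested. At an adjusted p-value below 0.05, 3 of 10 passed as higher and 0 as lower, and 10.6% of the 16085 genes tested were called higher and 12% lower (edgeR). At an unadjusted p below 0.05 there were 7 of 10, a threshold at which the share of all genes is not given here.

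Myc was at 73.9, 96.5, 75.6 and 77.8 TMM CPM in healthy and at 153, 134, 141 and 160 TMM CPM in tumor epithelial libraries. Every tumor library was above every healthy one. The log2 difference was 0.88 ± 0.15 (SE, adjusted p = 0.00217), and 0.84 to 0.95 when any 1 library was left out, with adjusted p-values of 0.0034 to 0.0117. Polr1a, the largest subunit of RNA polymerase I, was at 25.4, 48.9, 37.9 and 18.7 TMM CPM in healthy and 60.9, 74.7, 58.4 and 54.4 in tumor libraries. Its groups did not overlap either, with a log2 difference of 0.95 ± 0.28 (adjusted p = 0.0345). Nop56, a scaffold of the box C/D snoRNP, was at 33.3, 31.7, 24.4 and 38.4 TMM CPM in healthy and 44.5, 45.3, 51.4 and 59.5 in tumor libraries, with a log2 difference of 0.67 ± 0.20 (adjusted p = 0.0407). These 2 calls were close to the threshold. Nop56 no longer passed when any 1 of 7 of the 8 libraries was left out, all but healthy library 4 (adjusted p up to 0.122), and Polr1a without tumor library 1, 2, 3 or 4 or healthy library 1 or 3 (up to 0.0866). The count was 1 without tumor library 1, 2 or 3 or healthy library 3, and 4 without healthy library 4.

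**Figure D2:**
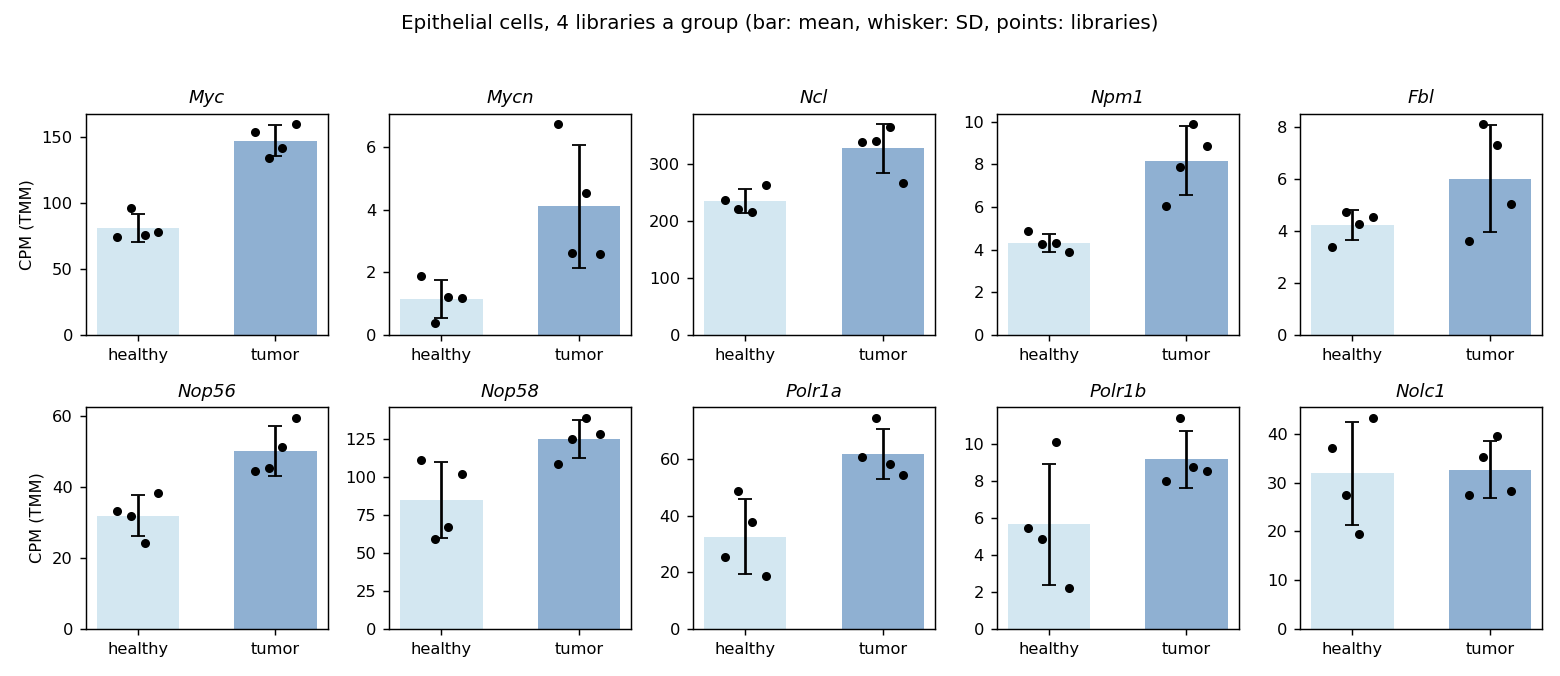
TMM CPM of the 10 genes in the 4 healthy and 4 tumor epithelial libraries, with bars at the mean, whiskers of 1 SD and a point per library. The points of Myc (73.9 to 96.5 against 134 to 160), Polr1a and Nop56 do not overlap between groups, and those of Nolc1 (19.5 to 43.3 against 27.4 to 39.6) do.

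The other members did not pass in epithelium by edgeR. Other settings gave 0 to 7 of 10 passing. limma-voom called 7, DESeq2 also called more than edgeR, and 1 fit of all 40 libraries called 0. The shares of all genes at these settings are not given here. Ncl was at 217 to 264 TMM CPM in healthy and 267 to 366 in tumor libraries, a log2 difference of 0.50 ± 0.17 (adjusted p = 0.0583). It passed without healthy library 4 (log2 0.60, adjusted p = 0.0295) or tumor library 4 (log2 0.60, adjusted p = 0.0438). Npm1 was at 3.87 to 4.86 against 6.05 to 9.88 TMM CPM, without overlap, and differed by 0.93 ± 0.32 on the log2 scale (adjusted p = 0.0581). When each gene was summed with its pseudogenes, Ncl (log2 0.56, adjusted p = 0.0454) and Npm1 (log2 0.90, adjusted p = 0.0403) passed as well, so that 5 of 10 were higher. Mycn was at 0.382 to 1.88 TMM CPM in healthy and 2.58 to 6.74 in tumor libraries, a log2 difference of 1.85 ± 0.60 (adjusted p = 0.0503), which rested on 6.87 to 22.5 counts per healthy library and passed without healthy library 1 (log2 2.21, adjusted p = 0.0371). Nop58 had a log2 difference of 0.57 (adjusted p = 0.101) and passed without the same library (log2 0.73, adjusted p = 0.042). Fbl (0.53), Polr1b (0.71) and Nolc1 (0.05) had adjusted p-values of 0.278 to 0.930. Summed markers of the cell cycle were at 4.59 to 44.5 RPKM in healthy and 11.99 to 28.4 RPKM in tumor epithelial libraries, and their part in these differences was not tested.

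Of the pathway lists, the small-subunit processome, which builds the small ribosomal subunit on the nascent transcript, had 8 of 41 genes higher and 1 lower in tumor epithelium, with a median log2 difference of 0.29. Nop14 (2.28-fold, adjusted p = 0.00327) and Ltv1 (2.28-fold, adjusted p = 0.00993), which serve the assembly of that subunit, were higher, and Utp20 was 2.17-fold lower (adjusted p = 0.00204). Large-subunit assembly factors had 4 of 40 higher and 0 lower (median 0.43), with Las1l, which takes part in cutting the spacer of the transcript, 2.25-fold and Mybbp1a 2.02-fold higher. Factors of RNA polymerase I had 1 of 18 higher, and the snoRNP list had 0 of 18 in either direction. In the Myc network, 3 of 16 were higher and 3 lower. Mycl, the other Myc paralog, was 3.82-fold higher (3.46 ± 0.392 against 0.688 ± 0.424 RPKM, adjusted p = 0.00187), and Mlxip and Mlxipl, glucose-responsive members of the network, were 2.39- and 3.47-fold lower. Other textbook Myc targets had 0 of 14 higher and 2 lower, among them Nampt, an enzyme of NAD synthesis (1.44-fold lower, adjusted p = 0.0349). Over the 6 lists, 16 of 147 (10.9%, beside 10.6% of all genes) were higher and 6 (4.08%, beside 12%) lower.

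In stroma, 0 of 10 genes passed in either direction, where 3.99% of 19081 genes were called higher in tumor stromal cells and 5.56% lower (edgeR). At an unadjusted p below 0.05 there were 0 as well, and limma-voom and DESeq2 called 0. Myc was at 68.6, 47.8, 41.5 and 533 TMM CPM in healthy and 118, 145, 118 and 86.9 in tumor libraries. Healthy library 4 lay above all tumor libraries and the other 3 below them, and the log2 difference was -0.48 ± 0.79 (adjusted p = 0.752). Without that library the sign turned and Myc passed as higher in tumor stroma (log2 1.21, adjusted p = 0.0363), and with the replicate number as a block it was 1.29 (adjusted p = 0.0431). In the labels, tumor stromal libraries 3 and 4 both carry the number 3, so that healthy library 4 is alone in its block and adds nothing to the blocked value. Nop58 was also high in healthy library 4, at 375 TMM CPM against 91.6 to 165 in the other healthy and 96.3 to 119 in the tumor libraries, and its log2 difference moved from -0.68 to -0.07 without it. Library 4 is also the one with the stromal marker sum of 2329 RPKM.

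Fbl had the largest log2 difference toward tumor stroma (0.99 ± 0.44, adjusted p = 0.203) and Mycn the largest toward healthy stroma (-0.71 ± 0.49, adjusted p = 0.410). Tumor stromal library 1, with the highest epithelial marker sum, held the group's highest value of Ncl (333 TMM CPM), Npm1 (9.26), Fbl (7.06) and Nolc1 (35.2). In tumor stroma, 7 of 10 epithelial markers were above healthy stroma in every library and 8 of 10 stromal markers below it, and the part of this in the values was not tested. Without tumor libraries 1 and 2, again 0 of 10 passed. Among the pathway lists, 6 of 148 genes (4.05%, beside 3.99% of all genes) were higher and 0 lower (beside 5.56%). They included Mycl (17.3-fold, adjusted p = 0.0194), the Max partner and Myc antagonist Mxd1 (42.9 ± 43.6 against 5.49 ± 2.16 RPKM, adjusted p = 0.0423), which is abundant in neutrophils here, and the nucleolar proteins Gnl2 (1.97-fold) and Rsl1d1 (2.28-fold). The 41 processome genes had 0 passing, with a median of 0.47 against 0.03 over all genes. Without tumor libraries 1 and 2, large-subunit assembly had 0 of 40 passing, so that Gnl2 and Rsl1d1 no longer did, the Myc network had 3 of 16 higher, textbook targets had 1 of 14 lower, and the processome median was 0.28.

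Neutrophils of the tumor were compared with blood neutrophils of tumor-bearing mice. Myc was 112-fold higher in the tumor, Nop58, Fbl and Nolc1 were 19.1-, 18.05- and 12.4-fold higher, and Ncl 3.47-fold. These 5 of the 7 genes tested passed as higher and 0 as lower, where 12.5% of 13674 genes were called higher and 5.39% lower (edgeR). Mycn, Npm1 and Polr1b had too few counts to be tested. In blood, Myc had 3.88 to 15.96, Fbl 2.45 to 3.53 and Nolc1 2.21 to 12.3 counts per library. They entered the test chiefly through the tumor libraries, so a lower call was hardly possible for them. With at least 10 counts in every library, 3 genes passed, a setting at which the share of all genes is not given here. In bulk libraries, fewer cells of a type and less RNA per cell cannot be told apart.

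Myc was at 1.05, 0.469, 0.420 and 0.332 TMM CPM in blood and at 81.6, 82.1, 37.0 and 22.7 TMM CPM in tumor neutrophils. The groups lay far apart, with a log2 difference of 6.81 ± 0.72 (adjusted p = 0.000562). The blood level rested on 3.88 to 15.96 counts per library, 30 in all against 2871 in tumor neutrophils, and the ratio of these sums per TMM-scaled depth was 90.9 with a 95% exact interval of 63.5 to 135. Such intervals cover counting error only. Fbl, the methyltransferase of the box C/D snoRNP, was at 0.196, 0.234, 0.210 and 0.332 TMM CPM in blood and 4.35, 5.92, 3.29 and 2.20 in tumor neutrophils (log2 4.17 ± 0.75, adjusted p = 0.00367). Its 12 counts in blood and 198 in tumor gave a ratio of 15.7 with an interval of 8.77 to 30.9.

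Nop58, partner of Nop56 in the same particle, was at 1.37, 3.12, 2.10 and 2.16 TMM CPM in blood and 90.8, 6.70, 27.0 and 18.3 in the tumor. Library 1 was highest, and the groups did not overlap (log2 4.25 ± 0.83, adjusted p = 0.00598). Nolc1 was at 0.327, 0.937, 0.210 and 0.582 against 13.9, 0.447, 4.34 and 3.52 TMM CPM. Here tumor library 2 lay inside the blood range (log2 3.63 ± 1.04, adjusted p = 0.0352). Ncl was at 40.2, 50.9, 43.5 and 54.0 TMM CPM in blood and 193, 167, 93.1 and 112 in the tumor, a log2 difference of 1.79 ± 0.36 (adjusted p = 0.00685).

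Nop56 and Polr1a, the other 2 genes tested, did not pass. Nop56 was at 3.86, 6.72, 20.3 and 4.41 TMM CPM in blood and 25.8, 8.04, 6.06 and 13.04 in the tumor (log2 0.78 ± 0.74, adjusted p = 0.505). Polr1a stood the other way, at 105, 102, 91.0 and 112 TMM CPM in blood and 38.1, 59.9, 42.8 and 49.0 in the tumor. Its groups did not overlap, yet the log2 difference of -0.93 ± 0.30 had an adjusted p of 0.0574. It passed without tumor library 2 (log2 -1.13, adjusted p = 0.0097) and by DESeq2 (log2 -0.94, adjusted p = 0.025).

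Tumor neutrophil library 1 carried the epithelial markers, and 9 of the 10 were above blood neutrophils in every tumor library, while the blood sums were 0.656 to 1.55 RPKM. Set against their mean in tumor epithelial cells, Myc was at 51.7% in library 1, where the markers were at 79.5%, then at 26.1%, 16.96% and 10.5% in libraries 2 to 4, where the markers were at 12.7%, 17.5% and 4.90%. Nop58 was at 67.0%, 2.47%, 14.4% and 9.87%. In libraries 2 and 3, the share of Nop58 was thus below that of the markers, and the share of Myc was below it in library 3 and above it in libraries 2 and 4. Ncl was at 54.5%, 23.7%, 19.0% and 23.1%, and Fbl at 66.3%, 45.03%, 36.6% and 24.5%, above the markers in libraries 2 to 4. Without library 1, 4 of 7 genes passed: Myc (log2 6.54, adjusted p = 0.0012), Fbl (4.10, 0.0066), Nop58 (3.10, 0.0122) and Ncl (1.57, 0.0108). Nolc1 no longer passed (2.52, adjusted p = 0.0863), nor without tumor library 3 or any 1 of the 4 blood libraries. Of 10 stromal markers, 6 were above blood neutrophils of tumor-bearing mice in every tumor library. Of 10 neutrophil markers, 1 was above and 5 were below. The part of epithelial and stromal RNA in the remaining differences was not tested.

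**Figure D3:**
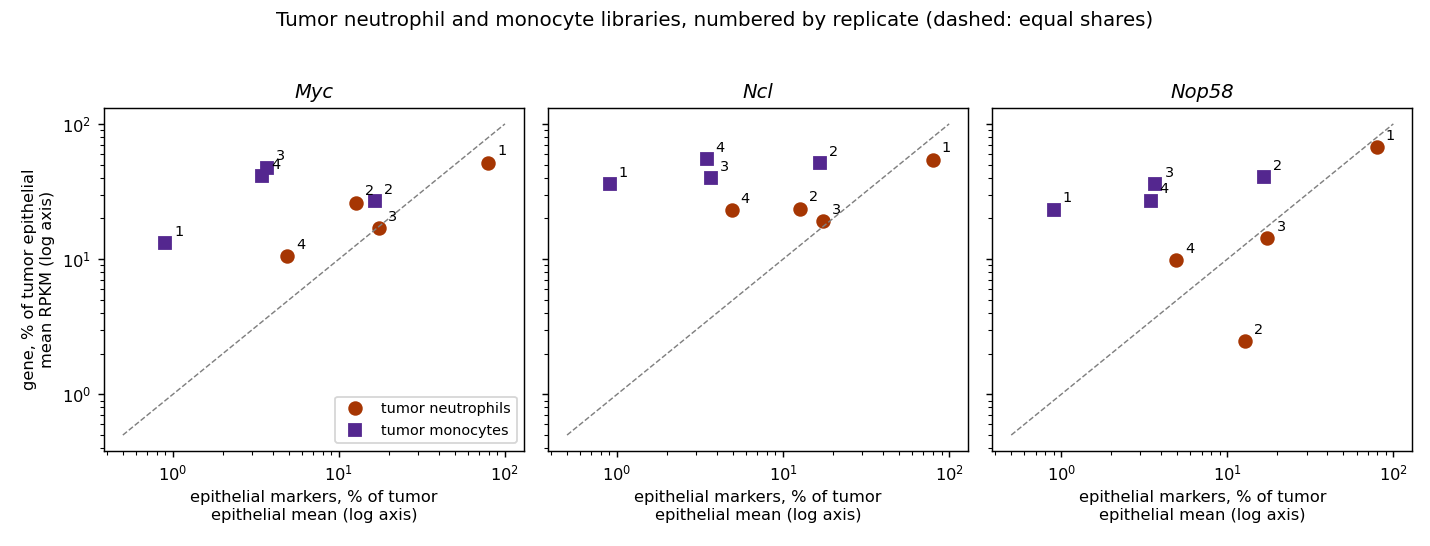
Myc, Ncl and Nop58 in tumor neutrophils and tumor monocytes (points numbered by library) as a percentage of their mean RPKM in tumor epithelial cells, against the median percentage of 10 epithelial markers, with a dashed line where the 2 are equal. Neutrophil library 1 lies at 79.5% of the markers with Myc at 51.7%, and the monocyte libraries lie above the line for Myc, at 13.2% to 47.4% with markers at 0.90% to 16.6%.

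In the pathway lists, 25 of 116 genes tested (21.6%, beside 12.5% of all genes) were higher in tumor neutrophils and 2 (1.72%, beside 5.39%) lower. The processome had 10 of 35 higher and 1 lower (median log2 difference 2.53 against 0.11 over all genes), and without library 1 it had 7 of 36 higher and 1 lower (median 1.43). Heatr1 and Utp4, which couple transcription of the ribosomal RNA to its processing, were 6.97- and 5.77-fold higher, and Krr1 was 3.35-fold lower (adjusted p = 0.0177). Large-subunit assembly had 8 of 32 higher (median 1.85), with Mak16 27.2-fold and the nucleolar GTPase Gtpbp4 21.7-fold. Mak16 was at 2.94 ± 2.99 against 0.141 ± 0.0764 RPKM, and without library 1 the list had 7 of 33 higher (median 1.42). The snoRNP list had 0 of 11 passing and the RNA polymerase I list 1 of 13 higher. Without library 1, the snoRNP list had 1 of 11 lower and the RNA polymerase I list 2 of 13 higher. Textbook Myc targets had 6 of 12 higher, with the transferrin receptor Tfrc 29.7-fold (3.43 ± 0.954 against 0.126 ± 0.0910 RPKM, adjusted p = 0.000917) and the serine enzyme Shmt1 6.61-fold. Shmt1 was at 1.71 ± 1.54 against 0.318 ± 0.130 RPKM, and without library 1 the list had 4 of 13 higher. In the Myc network, 1 of 13 passed, Fbxw7, whose ubiquitin ligase targets Myc protein for degradation (2.15-fold lower, adjusted p = 0.0458).

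Monocytes of the tumor were compared with blood monocytes of tumor-bearing mice in the same way. Myc was 6.74-fold and Nop58 3.14-fold higher in the tumor, and the other 7 genes tested did not pass. That made 2 of 9 higher and 0 lower, where 10.9% of 15280 genes were called higher and 6.28% lower. At an unadjusted p below 0.05 there were 4, where the share of all genes is not given here. Myc was at 11.3, 11.6, 6.19 and 4.70 TMM CPM in blood and 23.5, 42.5, 90.9 and 67.7 in the tumor. The groups did not overlap (log2 2.75 ± 0.46, adjusted p = 0.00265). Nop58 was at 13.9, 15.8, 12.2 and 18.5 against 35.7, 54.7, 59.1 and 38.4 TMM CPM, likewise without overlap (log2 1.65 ± 0.29, adjusted p = 0.00297). Both calls held without each library in turn.

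Ncl was at 53.0 to 115 TMM CPM in blood and 144 to 202 in tumor monocytes, without overlap, with a log2 difference of 0.86 ± 0.27 (adjusted p = 0.0534). It passed without blood library 2 (log2 0.68, adjusted p = 0.0378). Polr1b stood the other way (log2 -2.35 ± 0.82, adjusted p = 0.0757), at 2.80, 23.8, 2.33 and 4.99 TMM CPM in blood and 1.18, 1.36, 0.937 and 2.95 in the tumor. Blood library 2 was far above the rest, and without it the log2 difference was -1.04 (adjusted p = 0.328). Nolc1 (0.71), Nop56 (0.46), Npm1 (0.42), Polr1a (0.25) and Fbl (-0.27) had adjusted p-values of 0.288 to 0.786. Epithelial markers were at 0.90%, 16.6%, 3.70% and 3.46% of tumor epithelium in the 4 tumor libraries, and Myc at 13.2%, 26.9%, 47.4% and 41.1%. Library 2 had the most epithelial marker, and without it the Myc difference was 2.86 (adjusted p = 0.0063). In every tumor library, 7 of 10 epithelial markers were above all blood monocyte libraries of tumor-bearing mice. The part of the epithelial RNA in these differences was not tested.

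**Figure D4:**
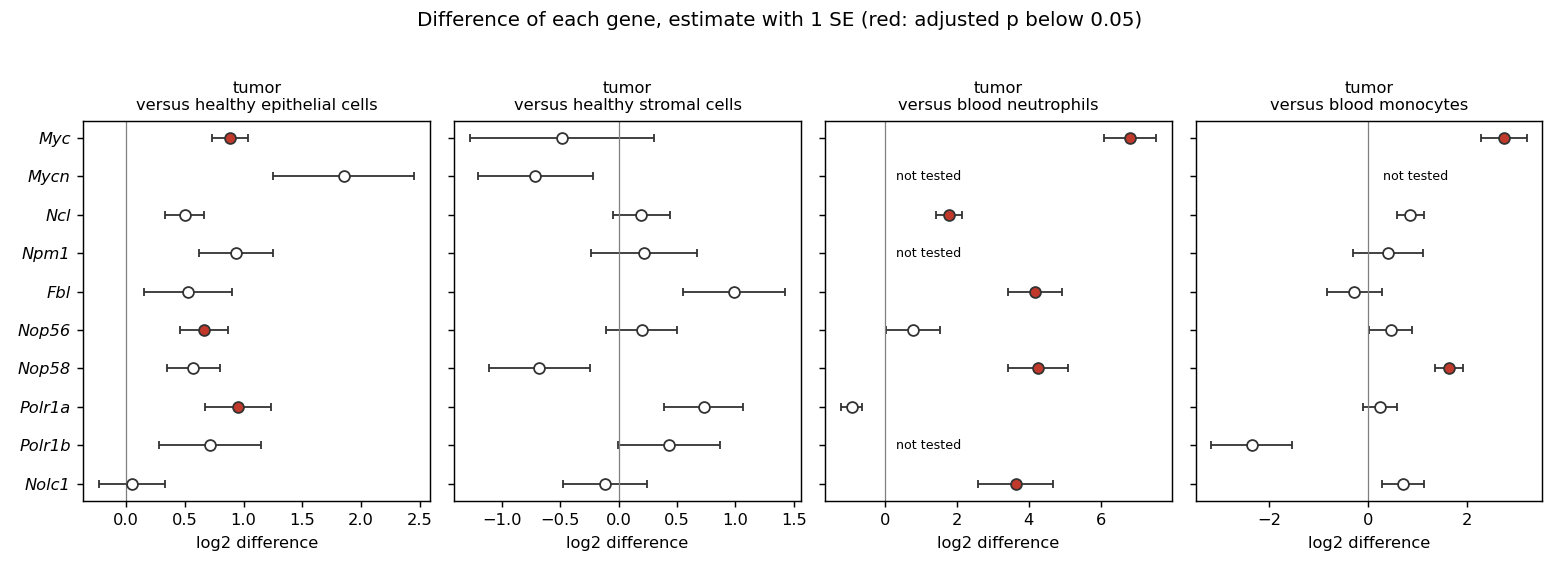
Log2 differences with bars of 1 SE for the 10 genes in 4 comparisons (tumor against healthy epithelial and stromal cells, tumor against blood neutrophils and monocytes), red where the adjusted p is below 0.05. Myc is red in epithelium (0.88), neutrophils (6.81) and monocytes (2.75) and not in stroma (-0.48).

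In monocytes, 13 of 146 list genes (8.90%, beside 10.9% of all genes) were higher and 8 (5.48%, beside 6.28%) lower. Mxd1 and Mxi1, which compete with Myc for Max, were 31.3-fold (77.9 ± 29.4 against 2.95 ± 1.34 RPKM, adjusted p = 7.03e-05) and 7.99-fold higher (adjusted p = 3.7e-05), and their relative Mxd4 was 3.13-fold lower. The processome had 2 of 41 higher, Utp4 (3.57-fold) and Heatr1 (2.18-fold), and 4 lower, among them Bysl (6.64-fold) and Wdr3 (3.66-fold), with a median of 0.07. Large-subunit assembly had 3 of 41 higher, including Rrp1b (4.57-fold) and the nucleolar GTPase Gnl3 (3.58-fold), and 2 lower, the RNA helicases Ddx51 (3.01-fold) and Ddx55 (2.68-fold). In the snoRNP list, the assembly factor Nufip1 was 4.46-fold higher, with 1 of 18 in each direction. The RNA polymerase I list had 0 of 18 passing. Textbook targets had 5 of 14 higher, led by Ccnd2, a G1 cyclin (8.84-fold), and Tfrc (8.41-fold).

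**Figure D5:**
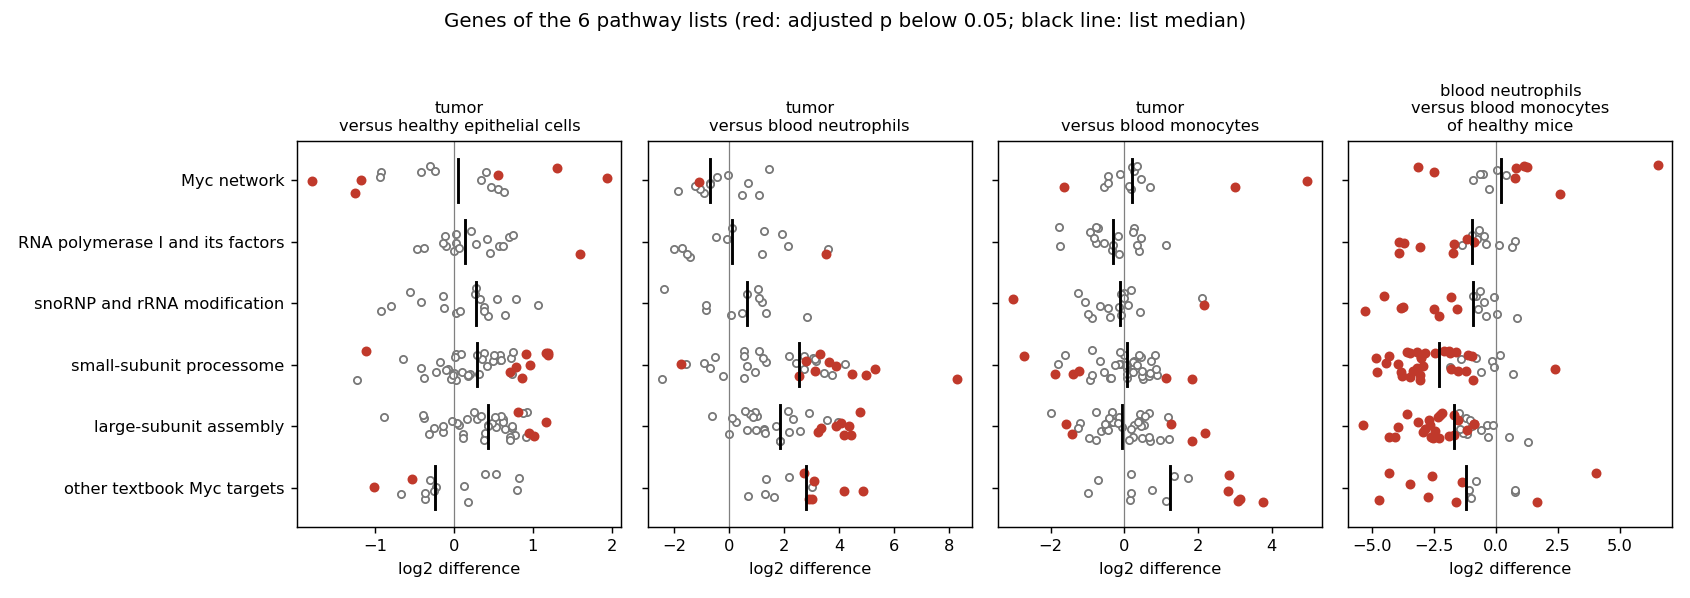
Log2 differences of the genes of the 6 pathway lists in 4 comparisons, red where the adjusted p is below 0.05, with a black line at each list's median. The comparisons are tumor against healthy epithelial cells, tumor against blood neutrophils, tumor against blood monocytes, and blood neutrophils against blood monocytes of healthy mice. The processome median is 2.53 in tumor against blood neutrophils and 0.07 in tumor against blood monocytes.

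The step from blood to tumor was then compared directly between both leukocytes, as a difference of log2 differences over 16 libraries. It was larger in neutrophils for Myc (3.90 ± 0.78, adjusted p = 0.0102), Fbl (4.33 ± 0.87, adjusted p = 0.0105) and Polr1b (5.13 ± 1.37, adjusted p = 0.0439). These 3 of 9 compare with 2.73% of 17465 genes called in this direction and 1.26% in the other, in which 0 members passed. Myc and Fbl held without tumor neutrophil library 1 (3.66, adjusted p = 0.0209, and 4.27, adjusted p = 0.0147). Polr1b was lost without it (4.89, adjusted p = 0.0712), and without any of 12 other libraries (adjusted p up to 0.108), and it rested on 2.03 to 4.37 counts per blood neutrophil library and on the high blood monocyte library 2, without which it was 3.85. Without tumor neutrophil library 4 it was 4.38 (adjusted p = 0.0727). Nop58 (2.44 ± 0.81, adjusted p = 0.0958), Polr1a (-1.30 ± 0.45, adjusted p = 0.107) and Nolc1 (2.77 ± 1.06, adjusted p = 0.142) did not pass, and without tumor neutrophil library 2 the count was 6. In the lists, 14 of 147 genes (9.52%, beside 2.73% of all genes) changed more toward tumor in neutrophils and 3 (2.04%, beside 1.26%) less. The former included Wdr36 (7.74 ± 1.35) and Wdr43 (4.63 ± 1.25) of the processome and Mak16 (4.18 ± 1.00) and Mybbp1a (3.52 ± 0.82) of large-subunit assembly. The latter were Mxi1 (-3.79 ± 0.44), Mxd1 (-3.98 ± 0.67) and Nampt (-2.26 ± 0.59). Without tumor neutrophil library 1, the processome had 3 of 41 in the former direction in place of 6, and large-subunit assembly 5 in place of 6. The RNA polymerase I list had 0 in place of 1, and textbook targets had 0 in the latter direction in place of 1.

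The 2 leukocytes were also compared in the blood of healthy mice. Blood neutrophils had lower levels than blood monocytes of 7 of 9 genes tested, and 1, Polr1a, was higher. Called genes made up 26.6% (lower) and 24.2% (higher) of the 15033 tested. Fbl was 23.2-fold lower in neutrophils (log2 -4.54 ± 0.57, adjusted p = 0.000163), at 0.0940, 0.237, 0.266 and 0.0763 against 4.31, 5.34, 4.01 and 3.15 TMM CPM. Myc was at 0.282, 0.946, 0.665 and 0.229 against 4.46, 1.23, 8.29 and 2.88 TMM CPM, with no overlap and a log2 difference of -2.95 ± 0.73 (adjusted p = 0.00737). Polr1b (8.10-fold), Nolc1 (7.81-fold), Npm1 (6.06-fold), Nop58 (3.59-fold) and Nop56 (2.51-fold) were lower as well, with adjusted p-values of 0.00384 to 0.0216. In these neutrophils, Fbl rested on 1.05 to 5.11 counts per library, Npm1 on 2.03 to 10.2 and Myc on 2.62 to 20.0. Polr1b rested on 3.04 to 27.1 counts and Nolc1 on 2.56 to 41.1, so the sizes of these differences are imprecise. Fbl, Npm1, Myc, Polr1b and Nolc1 entered the test chiefly through the monocyte libraries, so a higher call in neutrophils was hardly possible for them. With at least 10 counts in every library, fewer genes were tested and 3 passed. The pseudogenes of Npm1 held up to 72.0% of the joint counts in neutrophils and up to 40.7% in monocytes. With them, its median count was 12.9 against 56.6, and without them 4.71 against 38.9. Polr1a was at 70.1, 81.3, 56.0 and 73.6 TMM CPM in neutrophils and 22.4, 5.89, 33.9 and 26.0 in monocytes, a 3.14-fold higher level in neutrophils (log2 1.65 ± 0.44, adjusted p = 0.0112). Ncl differed by -0.49 ± 0.22 (adjusted p = 0.0889) and passed without monocyte library 2 (-0.58, adjusted p = 0.027). Without neutrophil library 3 or 4, 5 of 9 passed, since Nop56, Polr1b and Nolc1 no longer did (adjusted p = 0.0503 to 0.0636). Nop56 was also lost without monocyte library 1 or 4 (0.0626 and 0.064) and Polr1b without monocyte library 3 (log2 -2.23, 0.0549), while without neutrophil library 2 Polr1b and Nolc1 differed more (log2 -4.02 and -3.88).

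In these healthy cells, 79 of 140 list genes (56.4%, beside 26.6% of all genes) were lower in neutrophils and 9 (6.43%, beside 24.2%) higher. The processome had 30 of 40 lower and 1 higher (median log2 difference -2.29), and large-subunit assembly 24 of 38 lower (median -1.69). Among them, Wdr36 was 28.3-fold, Ltv1 21.6-fold, Mybbp1a 20.2-fold and the helicase Ddx21 12.2-fold lower. RNA polymerase I factors had 8 of 17 lower and 0 higher, with Tcof1 (treacle) and the initiation factor Rrn3 each 15.2-fold lower, and the snoRNP list had 8 of 17 lower, with the ribosomal RNA methyltransferases Ftsj3 and Emg1 3.50- and 2.95-fold. Textbook targets had 7 of 14 lower, including Cdk4 (6.79-fold) and Pa2g4 (6.09-fold), and 2 higher, Ccnd2 (16.6-fold) and Shmt1 (3.11-fold). The Myc network stood apart, with 6 of 14 higher and 2 lower. Mxd1 was 92.8-fold higher in neutrophils (192 ± 95.6 against 3.58 ± 0.593 RPKM, adjusted p = 5.00e-06) and Mxi1 6.05-fold.

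Blood of tumor-bearing and of healthy mice did not differ past the threshold in any member tested. In blood neutrophils, 4 genes had enough counts, and 0 of 4 passed, against 3.59% higher and 2.93% lower of 13360 genes in tumor-bearing mice (edgeR). At an unadjusted p below 0.05 there were 2, limma-voom called 0, and DESeq2 called Polr1a. The shares of all genes at these 3 settings are not given here. Polr1a was at 56.0 to 81.3 TMM CPM in healthy and 91.0 to 112 in tumor-bearing mice, without overlap (log2 0.56 ± 0.17, adjusted p = 0.0842). Ncl differed by -0.47 ± 0.19 (adjusted p = 0.186), Nop58 by -0.90 ± 0.42 (adjusted p = 0.244) and Nop56 by 0.66 ± 0.58 (adjusted p = 0.568). In blood monocytes, 0 of 9 passed against 0.0914% higher and 0.124% lower of 15313 genes, with 0 at an unadjusted p below 0.05 and 0 by limma-voom and DESeq2. Myc was at 1.23 to 8.29 TMM CPM in healthy and 4.70 to 11.6 in tumor-bearing mice (log2 0.99 ± 0.57, adjusted p = 0.618). Of the lists, Max, the partner of Myc, was 2.30-fold higher in blood neutrophils of tumor-bearing mice (32.2 ± 2.47 against 14.6 ± 5.31 RPKM, adjusted p = 0.0143). The coactivator Trrap was 1.79-fold higher there and Ccnd2 4.98-fold lower. In all, 2 of 107 list genes (1.87%, beside 3.59% of all genes) were higher and 3 (2.80%, beside 2.93%) lower. In blood monocytes 0 of 147 passed. The summed level of 10 markers of immature neutrophils was 28.2 to 78.5 RPKM in healthy and 358 to 1123 RPKM in tumor-bearing blood neutrophils, and 16.8 to 35.2 against 93.6 to 359 RPKM in blood monocytes, without overlap in either. It was 59.8 to 374 RPKM in tumor neutrophils. Its part in the differences of blood neutrophils and monocytes was not tested.

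Within the tumor, neutrophils and monocytes did not differ past the threshold in 9 of 9 genes tested, where 4.74% of 15003 genes were called higher and 2.97% lower in neutrophils (edgeR, with 0 members at an unadjusted p below 0.05, and 0 by limma-voom and DESeq2). Myc had a log2 difference of 0.17 ± 0.54 (adjusted p = 0.881). The 9 log2 differences lay between -1.04 (Nolc1) and 0.86 (Polr1a), with adjusted p-values of 0.235 or more. Without neutrophil library 1 the count was still 0. Of 142 list genes, Mxd1 (7.93-fold) and Tfrc (3.93-fold) were higher in neutrophils, and Nufip1 (10.4-fold) and Heatr1 (5.28-fold) lower. That made 1.41% of the list genes in each direction, beside 4.74% higher and 2.97% lower of all genes.

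Tumor epithelial and tumor stromal cells also had 0 of 10 members past the threshold, but here 0% of 16985 genes were called higher in epithelium and 0.0294%, 5 genes, lower (edgeR), with 0 members at an unadjusted p below 0.05 and 0 by limma-voom and DESeq2. All 10 log2 differences were above 0, from 0.14 (Nop58) to 0.67 (Polr1b). Myc was at 134 to 160 TMM CPM in epithelial and 86.9 to 145 in stromal libraries. Without stromal libraries 1 and 2, which carried epithelial markers, 2160 genes were called higher and 3695 lower of 19784, and 3 of 10 members were higher in epithelium: Polr1a (log2 1.07, adjusted p = 0.0104), Nolc1 (0.95, adjusted p = 0.0234) and Nop56 (0.72, adjusted p = 0.0312). Myc then differed by 0.54 (adjusted p = 0.069).

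Finally, the change from healthy colon to tumor was compared between epithelium and stroma. Mycn passed, with a log2 difference between the changes of 2.57 ± 0.77 (adjusted p = 0.0345), from 1.85 in epithelium and -0.71 in stroma. This 1 of 10 stands beside 7.21% of 20901 genes called in this direction and 7.93% in the other, where 0 members passed. Mycn was at 7.94, 3.98, 7.60 and 2.52 TMM CPM in healthy stroma and 2.88, 5.26, 2.34 and 2.39 in tumor stroma, so those groups overlapped. The call was lost without any 1 of 9 of the 16 libraries, namely healthy stromal 1 or 3, tumor stromal 1, 3 or 4, healthy epithelial 2 or 3 and tumor epithelial 1 or 3 (adjusted p = 0.0563 to 0.0838), and kept without tumor stromal libraries 1 and 2 together (3.03, adjusted p = 0.0424). Nop58 (1.27 ± 0.51, adjusted p = 0.108) and Myc (1.39 ± 0.86, adjusted p = 0.314) did not pass. Of 148 list genes, 1 (0.676%, beside 7.21% of all genes) was higher, the Max-binding repressor Mga (0.88 ± 0.27, adjusted p = 0.0376). Lower were 6 (4.05%, beside 7.93%), among them Mlxipl (-6.94 ± 0.94), Mxd1 (-3.67 ± 0.89), Utp20 (-1.57 ± 0.24) and the mitochondrial chaperonins Hspe1 (-2.30 ± 0.53) and Hspd1 (-1.49 ± 0.40).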

How the data were processed

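Sorted cells were lysed and amplified as cDNA before sequencing, and reads were aligned to mm10 with Bowtie2 by the authors. The deposited tables hold, for 45706 genes and 40 libraries, expected counts (99.6% of nonzero values are not whole, at a tolerance of 1e-06) and RPKM values, which the authors scaled to gene length and depth. The annotation release, the use of strand and the treatment of reads with several matches are not given in the sources used here. Of the genes, 45143 matched a symbol.

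Expected counts were rounded and tested with edgeR 4.0.16 in R 4.3.3 (TMM scaling, filterByExpr, robust quasi-likelihood test, Benjamini-Hochberg adjustment over all genes tested). A gene passed at an adjusted p below 0.05. Each comparison used its own libraries, and interactions used 16. Alternatives were limma-voom (limma 3.58.1), DESeq2 1.42.0, other filters and scalings, log2(RPKM + 1) and log2(RPKM + 0.1), and leaving out each library. Summing genes with their pseudogenes and leaving out tumor stromal libraries 1 and 2 together were chosen after seeing the data. By the titles some animals gave libraries of several groups, healthy mice included. The animal was tried as a block within the tumor only. The fit was tested on simulated data.

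The 10 genes and all lists were chosen with earlier results of these data known. Named besides were, per list and comparison, up to 2 passing genes per direction with the largest difference among those whose mean log2 CPM reached 3, plus the 5 genes most like Myc and Ncl, of which 1 is not reported here. Deviations of same-numbered libraries from their group means correlated at -0.151 to 0.251, and no comparison had every pair over 0.1, so the numbers were not treated as pairs. Counts limit the precision in blood neutrophils of tumor-bearing mice, where Myc, Mycn, Npm1, Fbl, Polr1b and Nolc1 had under 20 per library. In blood neutrophils of healthy mice, Mycn, Npm1 and Fbl had under 20 per library as well.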

Additional observations from a re-analysis of the deposited data

Results flagged for a closer look

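Single libraries lay far from the other 3 of their group in 13 of 100 gene and group pairs by Dixon's criterion. Its rate of about 1 in 20 holds for independent normal values. The criterion was applied to RPKM of genes that share libraries, so the count is not read against that rate. In healthy stromal cells the flagged values were Myc at 73.7 RPKM in library 4 and Npm1 at 1.42 RPKM in library 1. Tumor neutrophil library 1 held the highest Mycn (0.237 RPKM), Ncl (5.74 RPKM) and Npm1 (0.665 RPKM), and it is the library with epithelial markers at 79.5% of tumor epithelium. Tumor monocyte library 3 had Mycn at 0.109 RPKM, and tumor epithelial library 3 had Ncl at 14.6 RPKM. In blood neutrophils of healthy mice, library 2 had Mycn at 0.0226 and Polr1b at 0.0505 RPKM, both on under 30 counts. In blood neutrophils of tumor-bearing mice, Polr1a was lowest in library 3, at 2.82 RPKM. In blood monocytes of tumor-bearing mice, Polr1b was at 1.24 RPKM in library 2 and Nolc1 at 1.18 RPKM in library 1. Polr1b was lowest in tumor stromal library 3, at 0.140 RPKM.

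Changes that differed between cell types, by an interaction term in edgeR, were those of Myc (log2 3.90), Fbl (4.33) and Polr1b (5.13) from blood to tumor, larger in neutrophils than in monocytes, and that of Mycn (2.57) from healthy colon to tumor, larger in epithelium than in stroma.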

How the results depend on the processing

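Of the 22 member results that passed, 0 changed sign under any alternative, where 360 values stayed past the threshold and 79 did not. The cause was not tested unless said. In tumor against healthy epithelium, 3 passed, against 0 at an absolute log2 difference above 1.5, 7 by limma-voom, 6 by DESeq2, 5 with at least 10 counts in every library, 0 in 1 fit of all 40 libraries, 1 on log2(RPKM + 1), 1 on log2(RPKM + 0.1) and 5 with pseudogenes added. In tumor against blood neutrophils, 5 passed, against 3 with at least 10 counts and 8 in the fit of all libraries, and in monocytes 2, against 4 by DESeq2, 4 with at least 10 counts and 4 in the fit of all libraries. The shares of all genes called under these alternatives are not given here. DESeq2 called 1 in blood neutrophils of tumor-bearing against healthy mice. At least 10 counts left 3 of the 8 between healthy leukocytes, where fewer genes were tested. In tumor epithelium against stroma, 1 passed with the animal as a block and 3 without tumor stromal libraries 1 and 2. The leukocyte interaction had 3, against 5 by DESeq2, 1 with at least 10 counts and 0 on log2(RPKM + 1), and the colon interaction 1, against 0 with at least 10 counts, 0 in the fit of all libraries and 2 on either RPKM scale.

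With the replicate number as a block, which leaves healthy stromal library 4 alone in its block, Myc passed in stroma (log2 1.29, 1 call), Nop58 there was 0.018, and Polr1b between tumor leukocytes was -0.44. Calls lost under the block were Nop56 in epithelium (adjusted p = 0.0772), Nolc1 in tumor against blood neutrophils (0.187), Polr1b and Nolc1 between healthy leukocytes (0.0663 and 0.0887) and Polr1b in the leukocyte interaction (0.0904). The numbers did not pair the libraries.

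Signs that turned belonged to differences that had not passed. In stroma, Myc was 0.38 by limma-voom and 0.0075 on log2(RPKM + 0.1). On log2(RPKM + 1) and log2(RPKM + 0.1), Ncl was -0.16 and -0.18, Npm1 -0.065 and -0.13 and Nop56 -0.15 and -0.19, and Polr1b was -0.00033 on the latter. Without tumor stromal libraries 1 and 2, Ncl was -0.0028, Npm1 -0.39 and Nop56 -0.23. Polr1a in tumor against blood monocytes was -0.0095 and -0.0076 on the RPKM scales. In blood monocytes of tumor-bearing against healthy mice, the RPKM scales gave -0.032 and -0.055 for Ncl and -0.014 and -0.051 for Fbl, with -0.023 for Nop56 on log2(RPKM + 0.1) and -0.011 for Nop58 on log2(RPKM + 1), and limma-voom gave -0.012 for Npm1. Between tumor leukocytes, Myc was -0.0076 in the fit of all libraries, -0.29 and -0.37 on the RPKM scales and -0.50 with the animal as a block, Fbl was -0.11 and -0.20, and Polr1b was -0.45 by limma-voom, -0.0063 and -0.11 on the RPKM scales and -1.11 with the animal as a block.

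Leaving out each library gave 1 to 4 members passing in epithelium, 0 to 1 in stroma, 4 to 7 in tumor against blood neutrophils, 2 to 3 in monocytes, 0 to 0 in each comparison of tumor-bearing with healthy blood, 5 to 9 between healthy leukocytes, 0 to 0 between tumor leukocytes and between tumor epithelium and stroma, 2 to 6 for the leukocyte and 0 to 1 for the colon interaction. The number of all genes called moved with the library as well. Without healthy epithelial library 4, 2033 of 16996 genes were called higher in tumor epithelium, against 1708 of 16085 with it. For most of these fits, here and above, the share of all genes is not given. Ranges of log2 differences over these fits that crossed 0 were, in epithelium, -0.14 to 0.27 for Nolc1. In stroma they were -0.83 to 1.21 for Myc, -0.078 to 0.55 for Npm1, -0.027 to 0.35 for Nop56 and -0.49 to 0.023 for Nolc1. In tumor against blood monocytes they were -0.013 to 0.84 for Npm1 and -0.021 to 0.44 for Polr1a, and in blood neutrophils -0.18 to 0.98 for Nop56. In blood monocytes they were -0.029 to 0.31 for Ncl, -0.12 to 0.65 for Npm1, -0.15 to 0.27 for Fbl, -0.27 to 0.36 for Nop56, -0.17 to 0.17 for Nop58, -0.13 to 0.46 for Polr1a, -0.32 to 1.75 for Polr1b and -0.067 to 0.56 for Nolc1. Between tumor leukocytes they were -0.16 to 0.47 for Myc, -0.40 to 0.00037 for Ncl, -1.69 to 0.019 for Npm1, -0.019 to 0.50 for Fbl, -1.37 to 0.085 for Nop58 and -0.52 to 0.66 for Polr1b, and between tumor epithelium and stroma -0.026 to 0.66 for Mycn.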
